A study of Mus musculus with 125 samples.

Results

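Endothelial cells line blood vessels and sense the friction of flowing blood. The 7 genes described here, Klf2, Klf4, Nos3, Thbd, S1pr1, Piezo1 and Edn1, belong to that response and were chosen by name as genes of flow sensing, with earlier results of these data known. Their transcripts were counted in brain endothelial cells of 5 ages, among 27998 genes in the single-cell matrices. Their chromatin was read within 50 kb of each gene in 66 ATAC-seq peak lists. These windows held 4694 of the 4776622 deposited peaks, which fall into 198 of 301207 regions of the genome.

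The sensor of the group is Piezo1, a channel that opens when the membrane is stretched. Klf2 and Klf4 are zinc finger transcription factors that steady laminar flow induces through the MEK5, ERK5 and MEF2 kinase and factor cascade. Nos3 (the nitric oxide synthase of endothelium), Thbd (thrombomodulin, an anticoagulant receptor) and S1pr1 (a receptor for the blood lipid sphingosine 1-phosphate) are known targets that are raised with them, while Edn1, the precursor of the vasoconstrictor endothelin-1, is known to be lowered by sustained laminar flow.

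The single-cell libraries came from mouse brain at E9.5, E12.5 and E16.5 and from cortex at P8 and in adults of 2 months, each as 1 library enriched with beads against CD31, an endothelial surface protein. Embryonic brains were dissociated with collagenase, and cortices with a neural tissue kit. The ATAC-seq libraries were made from nuclei of adult mice of 2 months (12 endothelial, 10 input), of P6 mice (14 and 16) and of E12 embryos (11 and 3). Adult and P6 organs were brain, retina, heart, kidney, liver and lung, and E12 samples were brain, heart and trunk. In all ATAC-seq groups tamoxifen at 0.015 mg/kg had switched on a GFP reporter, which was seen in the vessels of each tissue, and input means nuclei of the whole tissue, so input also holds endothelial nuclei. The protocol places the collection of the P6 group at P7 and of the E12 group at E12.5. The strain, the driver of the recombinase, the sex and the number of animals per preparation are not given in the sources used here.

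Endothelial barcodes were those with at least 200 genes, at most 10% mitochondrial UMIs (counted transcripts) and at least 3 of the endothelial genes Cdh5, Pecam1, Egfl7, Esam, Tie1 and Kdr. They numbered, from E9.5 to adult, 5644, 6347, 3786, 4778 and 3154, or 23709 of 42340 barcodes in all, with a median of 4896 to 10469 UMIs. Levels below are in CPM, the UMIs of a gene per 1000000 UMIs of a library's endothelial barcodes. All 8 other endothelial markers, such as Cldn5 and Erg, were detected in every library, with a summed level of 1987 to 10569 CPM. Markers of mural cells, the contractile cells around vessels, summed to 65.4 to 1368 CPM and were highest in the adult. Erythroid markers, mostly globins of red blood cells, summed to 3131, 14889, 11100, 16055 and 8354 CPM in order of age, and neural markers to 177, 226, 215, 440 and 649. Each of 5 other lists, such as microglia and platelets, summed to at most 682 CPM. The part of these cells in the member levels was not tested further. Without barcodes that show 3 markers of cells other than erythroid ones, the members' 2-fold calls between ages again numbered 11. Beside them, 21.7% of all genes were called over the same steps, and 21.1% with all endothelial barcodes. Libraries carried 1 of 2 barcode sets: E9.5, P8 and adult in one, E12.5 and E16.5 in the other, with 0 to 3 barcodes shared across the sets and 8 to 50 within them. Steps from E9.5 to E12.5 and from E16.5 to P8 therefore cross the sets. The step from E16.5 to P8, and any ratio of adult over E9.5, also changes tissue and dissociation. In those comparisons age cannot be told apart from tissue and dissociation. The ATAC-seq lists held 19464 to 144197 peaks from 10.1 to 59.1 M (mega) tags, and endothelial lists averaged 35931 ± 8577 peaks in adults, 68291 ± 19188 at P6 and 94182 ± 23117 at E12 (SD). The first P6 brain endothelial list, with 27160 peaks, and the third E12 heart endothelial list, with 39096, stood apart from their replicates, sharing as little as 30.3% and 27.3% of regions with one of them.

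The start sites of 4 members are shown first, as the places where peaks were read below. RefSeq entries were matched for these 4 alone. Each line gives the 250 bases upstream of the start, 5′ to 3′ on the gene's strand, from RefSeq on GRCm38.p6: Klf2 at chr8:72318812-72319061 (plus strand), Klf4 at chr4:55532476-55532725 (minus), Piezo1 at chr8:122551330-122551579 (minus) and Edn1 at chr13:42301226-42301475 (plus). Capitals mark matches on either strand to CTANNNNTAG, a MEF2-type motif, or to CCNCNCCC, the GC-box type that KLF and SP factors bind. Overlapping matches run together.
Klf2: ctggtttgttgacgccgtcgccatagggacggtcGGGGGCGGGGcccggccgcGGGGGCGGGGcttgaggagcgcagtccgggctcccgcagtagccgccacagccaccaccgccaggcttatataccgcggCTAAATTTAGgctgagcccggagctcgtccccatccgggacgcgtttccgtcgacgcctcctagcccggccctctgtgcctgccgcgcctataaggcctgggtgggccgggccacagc
Klf4: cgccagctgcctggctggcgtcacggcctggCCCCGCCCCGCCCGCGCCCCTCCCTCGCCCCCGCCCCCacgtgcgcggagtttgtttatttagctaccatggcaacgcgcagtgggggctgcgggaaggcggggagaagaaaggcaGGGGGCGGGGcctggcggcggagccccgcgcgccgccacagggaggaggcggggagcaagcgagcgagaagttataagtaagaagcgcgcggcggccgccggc
Piezo1: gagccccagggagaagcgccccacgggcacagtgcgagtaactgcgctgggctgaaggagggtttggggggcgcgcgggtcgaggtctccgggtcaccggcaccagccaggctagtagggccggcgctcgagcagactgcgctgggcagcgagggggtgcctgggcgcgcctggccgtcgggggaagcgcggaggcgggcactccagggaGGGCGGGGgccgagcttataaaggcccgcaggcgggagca
Edn1: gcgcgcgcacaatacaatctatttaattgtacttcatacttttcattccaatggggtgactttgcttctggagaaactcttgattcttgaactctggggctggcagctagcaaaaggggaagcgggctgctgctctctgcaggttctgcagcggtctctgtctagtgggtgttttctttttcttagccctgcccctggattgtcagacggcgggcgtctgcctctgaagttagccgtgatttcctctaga
The Klf2 start holds the MEF2-type match CTAAATTTAG from base −118 to base −109 and 4 GC-box matches. Such a MEF2-type match is in 3.20% of 32851 mouse promoters of this length, and a GC-box match in 45.9%. Klf4 holds 9 overlapping GC-box matches, Piezo1 holds 1 and Edn1 none, and none of these 3 has the MEF2-type letters. GC content is 71.2% for Klf2, 74.0% for Klf4, 74.0% for Piezo1 and 50.4% for Edn1, beside a median of 52.4% over all promoters. The motifs CCGGAAG (ETS type), TGANTCA (AP-1 type), AGATAA (a site type of GATA factors) and TGTTTAC (forkhead type) have no match in the 4 windows.

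Brain endothelial transcripts of the group differed widely between ages. Klf2, Klf4, Nos3, Thbd, S1pr1 and Edn1 were all at their highest in the adult library, by 4.48-fold (Nos3) to 185-fold (Klf4) over E9.5. Adult and E9.5 libraries also differ in tissue and dissociation. The E9.5 level of Klf4 could not be told from that of barcodes with none of the 6 endothelial genes. Piezo1, the sensor, differed least, by 1.97-fold. Each age is a single library, so the differences have no replicate check and no test, and intervals below are exact 95% Poisson intervals that cover counting error only.

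Piezo1 stood at 33.9, 51.7, 42.2, 64.9 (62.9 to 67.0) and 66.8 CPM (63.6 to 70.2) in order of age. Its P8 and adult intervals overlap, and their order turned under 2 other scalings (log2 ratio 0.04, and −0.08 and −0.05). No step between consecutive ages reached 2-fold. Barcodes with none of the 6 endothelial genes held 9.61 to 23.0 CPM of Piezo1, and at E16.5 their interval (5.77 to 41.4) overlaps the endothelial one (40.3 to 44.2).

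Klf2 stood at 119 CPM at E9.5 (116 to 122), 610 at E12.5 (604 to 615), 1648 at E16.5 (1635 to 1660), 1149 at P8 (1141 to 1158) and 1916 in the adult (1899 to 1934). None of these intervals overlap, and the order was E9.5, E12.5, P8, E16.5, adult. Klf4 stood at 4.63 (4.03 to 5.30), 48.3, 232 (228 to 237), 251 (247 to 255) and 859 CPM (847 to 871) in order of age, from 212 UMIs at E9.5 to 19978 in the adult. E16.5 and P8 differed by 1.08-fold, and every other step of Klf4 exceeded 3-fold. Barcodes with none of the 6 endothelial genes held 34.2, 337, 334, 457 and 758 CPM of Klf2 and 2.70 (1.24 to 5.13), 25.1, 88.8, 115 and 161 CPM of Klf4 in order of age. At E9.5 the Klf4 intervals of both kinds of barcode overlap, with 212 and 9 UMIs. Ratios of Klf4 over E9.5 thus rest on a level that cannot be told from that of barcodes with none of the 6 genes. With every barcode thinned to 1000 UMIs, 10.3% of E9.5 and 71.6% of adult endothelial barcodes held a Klf2 UMI, and 0.479% and 50.1% a Klf4 UMI. Barcodes with none of the 6 endothelial genes, thinned alike, held Klf2 in 5.95% and 32.5% and Klf4 in 0.279% and 12.2%. Such barcodes carry markers of other cells, such as erythroid ones at E9.5 (27307 CPM) and mural ones in the adult (5379 CPM). Their levels are therefore not a measured background. Median UMIs before thinning were 7158.5 (endothelial) and 1769 (none of the 6) at E9.5, and 4896 and 2463.5 in the adult.

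Nos3, whose product makes the vasodilator nitric oxide, stood at 37.9, 63.3, 112, 82.3 and 170 CPM in order of age. Barcodes with none of the 6 endothelial genes held 0 to 8.41 CPM of Nos3, below the endothelial level at each age. Thbd stood at 6.78 CPM at E9.5, then between 28.4 and 32.7 at E12.5, E16.5 and P8, and at 219 in the adult (213 to 225). Its E12.5 and E16.5 intervals meet (31.5 to 34.0 and 28.5 to 31.8), as do those of E16.5 and P8. S1pr1 stood at 47.7, 76.5, 80.4, 136 and 620 CPM, with overlapping intervals at E12.5 (74.6 to 78.5) and E16.5 (77.7 to 83.1). Barcodes with none of the 6 endothelial genes held 2.40, 7.00, 10.7 (2.20 to 31.1), 40.8 (23.3 to 66.3) and 27.6 CPM of Thbd in order of age. These intervals overlap the endothelial ones at E16.5 and P8, where they rest on only 3 and 16 UMIs. At those ages the endothelial level of Thbd cannot be told from that of these barcodes, which are not a measured background. For S1pr1 the same barcodes held 10.2, 16.8, 21.3, 81.6 and 162 CPM and stayed below the endothelial level at every age. From P8 to adult S1pr1 differed 4.57-fold (4.45 to 4.69). The ratio of Thbd was 7.70-fold, from a P8 level that cannot be told from that of barcodes with none of the 6 genes.

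Edn1 stood at 32.9 CPM at E9.5 (31.3 to 34.6), 35.5 at E12.5 (34.2 to 36.9), then 80.8, 58.1 and, in the adult, 249 (243 to 255). The first pair of intervals overlaps. Barcodes with none of the 6 endothelial genes held 1.81 to 15.3 CPM of Edn1, below the endothelial level at each age. In the adult Edn1 was high together with Klf2 and Klf4, 4.29-fold over P8 (4.11 to 4.47).

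**Figure D1:**
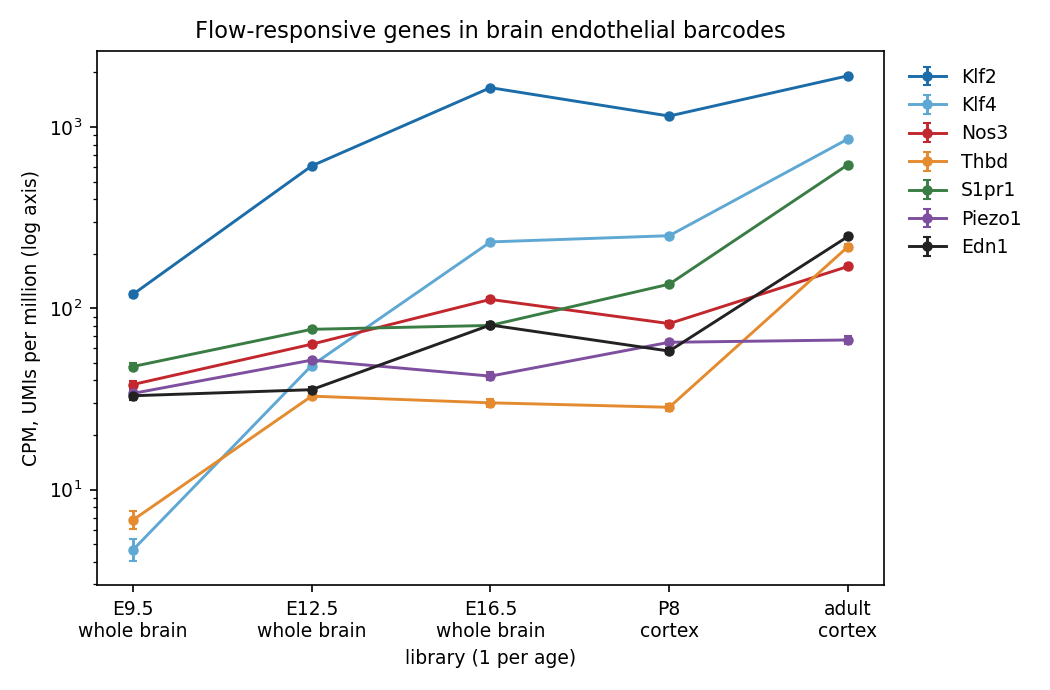
Level of the 7 genes in brain endothelial barcodes at 5 ages, in CPM on a log axis, 1 library per age, with exact 95% Poisson intervals as bars. Every gene but Piezo1 is highest in the adult beyond counting error, while the P8 and adult intervals of Piezo1 overlap, with their order turning under 2 other scalings; Klf4 climbs from 4.63 to 859 CPM, while Piezo1 stays between 33.9 and 66.8.

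Counted at 2-fold or more, 3 of 7 members (Klf2, Klf4, Thbd) were higher at E12.5 than at E9.5, where 19.1% of 6332 genes with at least 20 CPM at either age were (9.18% were lower). At E9.5 Klf4 (4.63 CPM) and Thbd (6.78 CPM) were under 20 CPM. They passed this limit through E12.5 alone, so they could count only as higher. Klf2 differed 5.12-fold (4.98 to 5.26), Klf4 10.4-fold (9.07 to 12.02) and Thbd 4.83-fold (4.29 to 5.45). Between E12.5 and E16.5, 3 of 7 were higher (Klf2 2.70-fold, Klf4 4.81-fold, Edn1 2.27-fold), beside 8.16% of all genes (5.87% lower). From E16.5 to P8 none passed in either direction, where 10.7% of genes were higher and 7.78% lower. From P8 to adult 5 of 7 were higher (Klf4, Nos3, Thbd, S1pr1 and Edn1), beside 13.7% of genes (9.87% lower). Of these, Nos3 lies at the limit, at 2.07-fold (1.98 to 2.16). The P8 level of Thbd cannot be told from that of barcodes with none of the 6 endothelial genes. No member was 2-fold lower at any step. The median log2 ratio over the members was 0.61, 0.73, −0.06 and 1.73 for the 4 steps, beside 0.12, −0.02, 0.01 and 0.06 over all genes counted.

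Immediate early genes such as Fos and Egr1, which dissociation and other stimuli raise within minutes, also differed between ages. Their 16 genes summed to 664, 1432, 5830, 5015 and 7861 CPM in order of age. Klf2, Nos3 and Edn1 had the same order of ages, and Klf4 had it but for E16.5 and P8. From E12.5 to E16.5 all 15 that were counted were at least 2-fold higher. Within a library, barcodes with over 0.2% of UMIs from these genes had 1.46 to 3.16 times the Klf2 level of the others, 1.59 to 5.84 times the Klf4 level and 1.32 to 4.66 times the Edn1 level. Nos3 differed by 0.990 to 1.56 times.

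When the ages were compared only among barcodes at or under that share, a setting added after the data were seen, the step from E12.5 to E16.5 held no member at 2-fold (6.32% of all genes were higher). Klf2 then differed 1.81-fold, Klf4 1.85-fold and Edn1 1.31-fold. In the adult the levels in these barcodes were 1206 CPM for Klf2 (1916 in all endothelial barcodes), 605 for Klf4 (859) and 202 for Edn1 (249). Over P8, Thbd was 10.6-fold, S1pr1 4.97-fold, Edn1 4.86-fold, Klf4 4.84-fold and Nos3 2.20-fold higher, 5 members beside 14.9% of genes. Over all endothelial barcodes, the P8 level of Thbd could not be told from that of barcodes with none of the 6 endothelial genes. E12.5 over E9.5 gave 4.81-fold for Klf2, 9.63-fold for Klf4 and 4.73-fold for Thbd (18.7% of all genes were 2-fold higher), and P8 over E16.5 gave 2.11-fold for S1pr1 (15.9%). These barcodes are 15.3% of the endothelial barcodes at E16.5, 25.1% at P8 and 34.5% in the adult, against 98.5% and 81.8% at E9.5 and E12.5. The part of the immediate early genes in the member levels was not tested further.

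**Figure D2:**
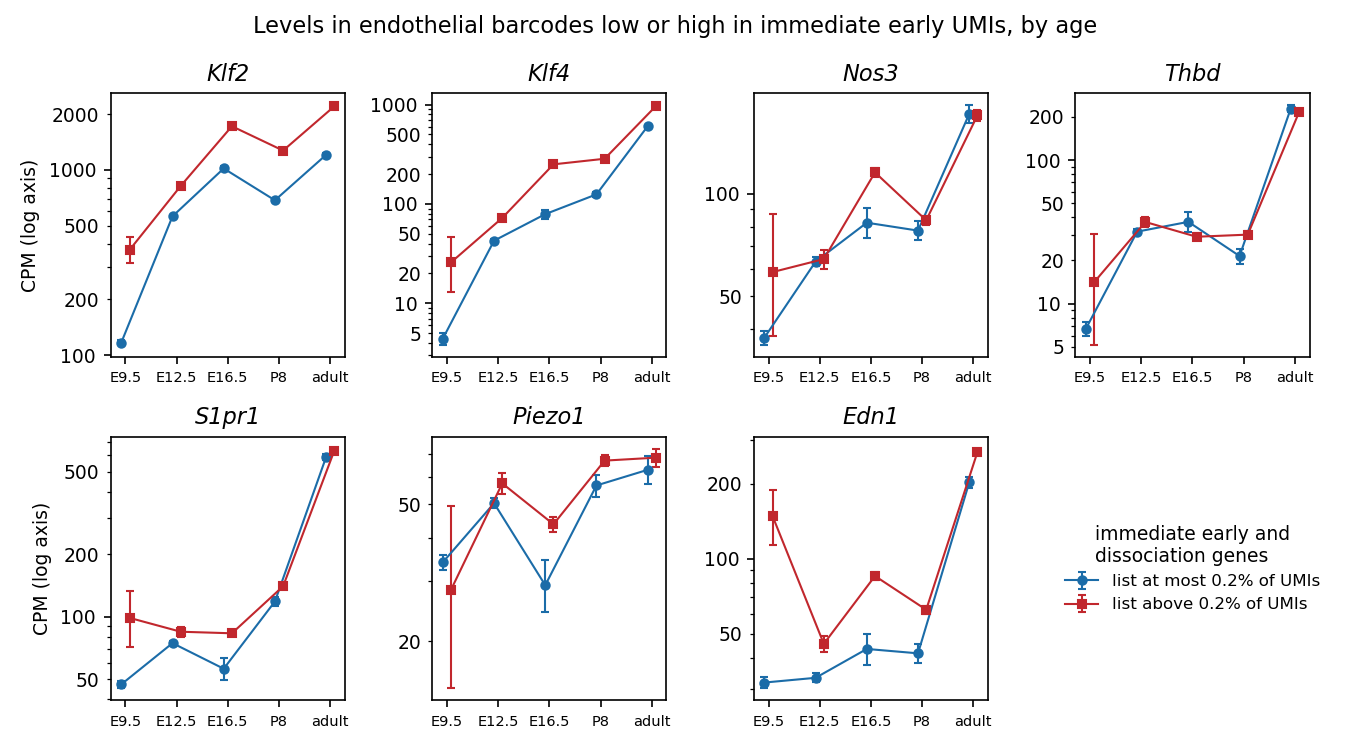
Level of each gene, in CPM on a log axis, at 5 ages in barcodes with at most 0.2% of UMIs from 16 immediate early genes and in barcodes above that share, with exact 95% Poisson intervals. Klf2, Klf4, S1pr1 and Edn1 lie higher in the second class at every age. Nos3 shows nearly the same level in both classes at E12.5 (1.02 times), P8 (1.07 times) and adult (0.990 times) and lies higher in the second at E9.5 (1.56 times) and E16.5 (1.41 times).

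The cascade above Klf2 and Klf4 was read from 20 listed sensing and signalling genes. Of these, 2 of 16 counted were at least 2-fold higher and 2 lower from E9.5 to E12.5, none of 15 either way from E12.5 to E16.5, 3 higher of 16 from there to P8, and 2 higher and 1 lower of 18 from P8 to adult. Over all genes counted, 19.1%, 8.16%, 10.7% and 13.7% were higher at these steps and 9.18%, 5.87%, 7.78% and 9.87% lower. From E9.5 to adult 11 of 18 were higher and 1 lower, beside 34.5% and 22.3% of all genes, with a median log2 ratio of 1.23 beside 0.26. Heg1, a receptor that anchors the CCM complex upstream of Klf2 and Klf4, stood at 35.7 CPM at E9.5 and 334 in the adult. Krit1, its partner in that complex, stood at 32.9 and 96.8. Trpv4, a mechanosensitive calcium channel, was near 0 until P8 (0.976 CPM) and at 21.4 in the adult. It was counted through its adult level alone, so it could count only as higher. Pkd1, the polycystin of flow sensing, reached 38.4 CPM in the adult, 2.25-fold over P8. Its P8 level was under 20 CPM, so Pkd1 too could count only as higher. Plxnd1, a semaphorin receptor that also senses shear, went the other way, from 156 at P8 to 48.0 CPM.

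Of the genes that textbook accounts place under KLF2 as raised by flow, 4 of 7 were higher and 1 lower from E9.5 to E12.5, 5 of 8 and 1 from E12.5 to E16.5, 0 and 1 of 8 to P8, and 3 and 1 of 8 to the adult. The shares over all genes were 19.1% higher and 9.18% lower, 8.16% and 5.87%, 10.7% and 7.78%, and 13.7% and 9.87%. Slc9a3r2 was 3.37-fold higher in the adult than at P8, at 1310 CPM, and Smad6, an inhibitor of BMP signals, 5.82-fold, at 49.7. Smad6 was under 20 CPM at P8, so it could count only as higher at this step. Plat, the tissue plasminogen activator, was 13.7-fold higher at E12.5 than at E9.5. Hmox1, the haem-degrading enzyme, was lower in the adult, at 0.302 times the P8 level. Of the genes such accounts place as lowered by flow, 5 of 6 were higher and 1 lower from E9.5 to E12.5, 1 of 5 each way at both next steps, and 3 of 6 higher and 3 lower from P8 to adult, beside the same shares. Vcam1, a leukocyte adhesion molecule, was 5.71-fold higher at 190 CPM, and Ctgf, a matricellular protein, 5.36-fold higher, while Angpt2, an angiopoietin of sprouting vessels, stood at 0.139 times its P8 level.

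Partners of the targets differed among themselves. In the nitric oxide pathway 2 of 5 counted genes were at least 2-fold higher from E9.5 to E12.5, 3 of 6 to E16.5, 2 of 8 higher and 1 lower to P8, and 3 of 10 higher to the adult, beside 19.1%, 8.16%, 10.7% and 13.7% of all genes higher and 7.78% lower to P8. Cav1, the caveolar protein that binds the synthase, was 22.8-fold higher at E12.5 than at E9.5 and then peaked at 852 CPM at E16.5. Gch1, which makes the synthase's cofactor, was 5.68-fold higher at E12.5 than at E9.5. Around thrombomodulin, Procr, the protein C receptor, stood at 94.8 CPM at E12.5 and 27.1 in the adult, and the clotting inhibitor Tfpi and the thrombin receptor F2r stood in the adult at 0.305 and 0.241 times their P8 levels. Around Edn1, the converting enzyme Ece1 was 1.65-fold and the ligand gene Edn3 5.07-fold higher in the adult than at P8. Spns2, which exports sphingosine 1-phosphate, stood at 0.764 times, and the receptor S1pr4 at 4.03 times. Of the other KLF genes counted, 5 of 7 were at least 2-fold higher in the adult than at P8 (13.7% of all genes), led by Klf9 (6.22-fold, 575 CPM) and Klf7 (2.70-fold).

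Within each library the members were set against arterial identity. Among endothelial barcodes with at least 2 of 8 arterial markers, which are 37 to 69% of barcodes, 5 of 35 values (7 genes in 5 libraries) were at least 2-fold higher than in the rest: Edn1 at E9.5 (3.08-fold), E12.5 (2.00-fold), E16.5 (2.44-fold) and adult (2.08-fold), and Klf4 at E9.5 (2.11-fold). Of all genes with at least 20 CPM in either class, 1.09%, 1.79%, 1.32%, 1.6% and 5.5% were so much higher in the 5 libraries. Klf4 at E9.5, at 4.63 CPM over all endothelial barcodes, was under that limit, so the share of that library does not apply to it. Since markers such as Unc5b and Sox17 are widely expressed, a narrower class, chosen after the data were seen, required 2 of Gja5, Bmx and Sema3g. It holds 170 to 589 barcodes per library, with median UMIs of 7816.5 to 14184 against 4536 to 10294 in the others.

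Edn1 stood out in the narrow arterial class. It was at 124.7 CPM against 29.6 at E9.5, 198 against 23.6 at E12.5, 311 against 59.5 at E16.5, 185 against 49.9 at P8 and 405 against 175.1 in the adult. The ratio was 4.21 (3.61 to 4.90), 8.42 (7.80 to 9.08), 5.23 (4.86 to 5.61), 3.71 (3.40 to 4.03) and 2.31 (2.20 to 2.44), in order of age. Klf2 and Klf4 were also higher in every library, by 1.47 to 2.63 times and by 1.62 to 2.67 times.

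Nos3 was 1.48 to 2.13 times higher at the 4 younger ages and at 0.897 times in the adult, and S1pr1 1.32 to 2.15 times higher in all 5. Thbd was at 1.03, 1.10, 0.790 and 1.52 times in the 4 younger libraries, and in the adult it was lower in arterial barcodes, at 115 against 268 CPM (0.430 times, 0.399 to 0.463). Piezo1 turned likewise, from 1.34 times at E9.5 to 0.688 times in the adult. In all, 11 of 35 values were at least 2-fold higher and 1 lower, beside 4.36%, 6.98%, 7.65%, 7.35% and 6.47% of all genes higher in order of age and, in the adult, 4.1% lower. Among the 11, Klf4 at E9.5 rests on 16 UMIs in the narrow class (10.1 against 4.44 CPM). Genes under 20 CPM in both classes do not enter these shares.

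**Figure D3:**
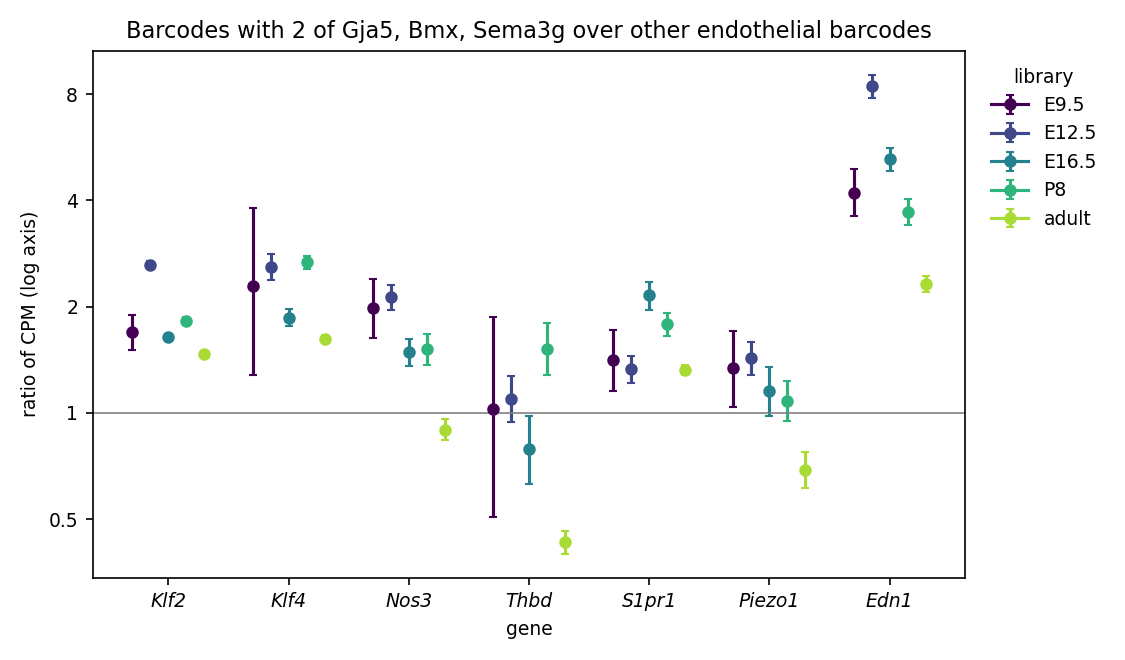
Ratio of the level in endothelial barcodes with at least 2 of Gja5, Bmx and Sema3g to that in all other endothelial barcodes, by gene and age, on a log axis with exact 95% intervals of counting error. Edn1 lies above 2 at every age, up to 8.42 at E12.5, whereas adult Thbd lies at 0.430.

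In the adult the members parted along the vessel classes. With 0, 1, 2, 3 and 4 or more arterial markers, Edn1 stood at 115, 159, 190, 257 and 388 CPM, and Piezo1 at 80.0, 77.6, 76.0, 63.4 and 50.3. Over the venous markers, such as Nr2f2 and Ackr1, Thbd was highest in barcodes with 4 or more (352, against 144 to 192 in the others), and so were Nos3 (214 against 145 to 159) and Piezo1 (98.6 against 50.2 to 59.0). S1pr1 went from 710 CPM with none to 489 with 4 or more. Along the capillary markers, such as Mfsd2a and Slc16a1, Klf2 went from 4074 CPM in barcodes with none to 1706 in those with 4 or more, and Klf4 from 1771 to 759, while Thbd went from 104 to 245. Only 25 adult endothelial barcodes had no capillary marker, against 2443 with 4 or more. Marker detection grows with UMIs per barcode, and the part of depth in these gradients was not tested.

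Klf4, like most other members, was detected more often in barcodes that held Klf2. In barcodes thinned to 1000 UMIs, Klf4 was detected in 1.38% of those with Klf2 and 0.376% of those without at E9.5, in 7.81% and 2.37% at E12.5, in 21.5% and 10.8% at E16.5, in 26.2% and 10.6% at P8, and in 53.3% and 42.0% in the adult. The share was higher with Klf2 in each library, though at E9.5 only 8 barcodes held both genes. The same held in each library for Thbd, S1pr1, Piezo1 and Edn1, and for Nos3 in all but E9.5 (3.62% and 3.80%). In the adult these shares were 18.4% and 16.4% for Thbd, 46.0% and 45.7% for S1pr1, 6.13% and 5.57% for Piezo1, and 16.6% and 13.4% for Edn1. Some differences were slight, such as 12.75% and 12.69% for S1pr1 at P8 and 3.45% and 3.35% for Piezo1 at E9.5. How many of all genes were detected more often with Klf2 was not computed, so the members have no background here.

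Profiles over the 5 ages were compared by the root mean square difference of centred log2 levels (CPM plus 10), among 7845 genes. Nearest to Klf2 were Cdkn1a (0.259), Lgals9 (0.261) and Il10rb (0.287), and nearest to Klf4 were Ly6e (0.245), Slc6a6 (0.274) and Wfdc1 (0.284). Nos3 lay nearest to Grina (0.053), Lrch1 and Cyth1, Thbd to Isg15 (0.194), B4galt4 and Cdk19, and S1pr1 to Crispld1 (0.119), Psmb8 and Ceacam1. Ankra2 (0.049) and 2010111I01Rik were among the nearest to Piezo1, and Edn1 lay nearest to Per1 (0.129), H2-Q4 and Hrct1. Among the members themselves S1pr1 and Thbd were closest (0.35) and Klf4 and Piezo1 farthest apart (1.79). Since 5 libraries define each profile, these distances are descriptions.

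At the chromatin of the 7 genes, peaks covered the start or an edge in nearly every list, and at Nos3 in fewer. Per list, 40.9 to 66.5% of 21887 protein-coding genes had a peak within 500 bp of either end. A peak lay on the Klf2 start at chr8:72318571-72319753 and on the Klf4 start at chr4:55532200-55533888 in 66 of 66 lists. The Piezo1 start at chr8:122550696-122551895 carried one in 65 lists and the region that holds the Edn1 start, chr13:42300521-42301910, in 64. Gene edges stood in for the start where the strand was not given. The upper edge of S1pr1 (chr3:115714586-115715727) had a peak in 65 lists and that of Thbd (chr2:148406185-148408721) in 61.

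The lower edge of Nos3 (chr5:24364191-24364997) had one in 47 lists. These were 12 of 12 adult and 14 of 14 P6 endothelial lists, all 11 from E12, but 2 of 10 adult, 8 of 16 P6 and 0 of 3 E12 input lists. The upper edge, where Atg9b overlaps, had a peak within 500 bp in 10, 11 and 11 of these endothelial lists and in 3, 9 and 1 of these input lists. At both tested ages the difference did not pass over all regions by the exact stratified test (P6 p = 0.00167, adjusted 0.0545; adult p = 0.000772, adjusted 0.619). Ranked by fold enrichment within its list, the Edn1 start peak was in the top 13.2% at the median of P6 endothelial lists and in the top 68.2% in P6 input lists. The start peaks of Klf2 (top 20.1% and 13.0%) and Klf4 (47.9% and 27.8%) went the other way. For Piezo1 the medians were 55.0% and 63.6%. The authors' lists give these ranks and hold different numbers of peaks, so the ranks describe single lists.

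Next, endothelial and input lists of P6 were compared for 165 testable regions around the members, out of 198. A region counts as present in a list when a peak overlaps it by at least 1 base, and an exact test stratified by organ was adjusted over all 263527 testable regions. Peaks were more frequent in endothelial lists at 10 member regions and less frequent at 1, so 6.67% of the member regions passed beside 2.34% of all regions (1.75% more frequent, 0.583% less). Klf2 held 4 of them, S1pr1 3, and Nos3 and Piezo1 2 each. Klf4, Thbd and Edn1 held none of 11, 28 and 19 tested. Unadjusted p-values were under 0.05 at 47 member regions, or 28.5% beside 16.2% of all.

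Around Klf2 the clearest region was chr8:72300556-72301084, which lies 17978 bp upstream of the start. A peak was there in 13 of 14 P6 endothelial lists and 0 of 16 P6 input lists (exact test, adjusted p = 0.0126), and in 4 of 12 adult and 7 of 11 E12 endothelial lists and in 0 of 10 adult and 0 of 3 E12 input lists. A region 2630 bp past the gene's end (chr8:72324284-72325085) had a peak in 13 and 2 P6 lists (exact adjusted p = 0.0175), and one 14544 bp past it (chr8:72336198-72337911) in 11 and 3 (0.0212). The last, chr8:72363420-72363814, lies within the neighbouring gene Eps15l1, 41766 bp past the end of Klf2, with 11 and 3 lists (0.0313). Klf2 windows held 13.3 ± 2.33 peaks in P6 endothelial lists (SD, n = 14) and 9.38 ± 2.87 in input lists (n = 16), although the endothelial lists were shorter.

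Inside Nos3, chr5:24365550-24365943 had a peak in 12 of 14 endothelial and 0 of 16 input lists of P6 (adjusted p = 0.0126 by the exact test), and in 7 of 12 adult, 11 of 11 E12 endothelial lists, 0 of 10 adult and 1 of 3 E12 input lists. The second Nos3 region, chr5:24389282-24389679, lies 4808 bp past the gene within Atg9b and had a peak in 12 and 3 P6 lists (0.0175). Piezo1 had 2 regions within the gene. At chr8:122496981-122498212, which lies 53117 bp from the start, all 14 P6 endothelial lists and 6 of 16 input lists held a peak (exact adjusted p = 0.0248), and at chr8:122531305-122532381, 18948 bp from it, 10 and 3 did (0.0401).

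S1pr1 had regions in both directions. Peaks at chr3:115682388-115683266 were in 14 endothelial and 8 input lists of P6 (exact adjusted p = 0.0445) and at chr3:115692572-115693801 in 14 and 7 (0.0389). Within the gene, chr3:115712831-115713184 had a peak in 4 of 14 endothelial and 16 of 16 input lists (0.0175), the 1 member region that was less frequent in endothelial lists. No other protein-coding gene overlaps the S1pr1 window. Whether fewer open nuclei or less open chromatin per nucleus underlies a missing peak cannot be told apart in these preparations.

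**Figure D4:**
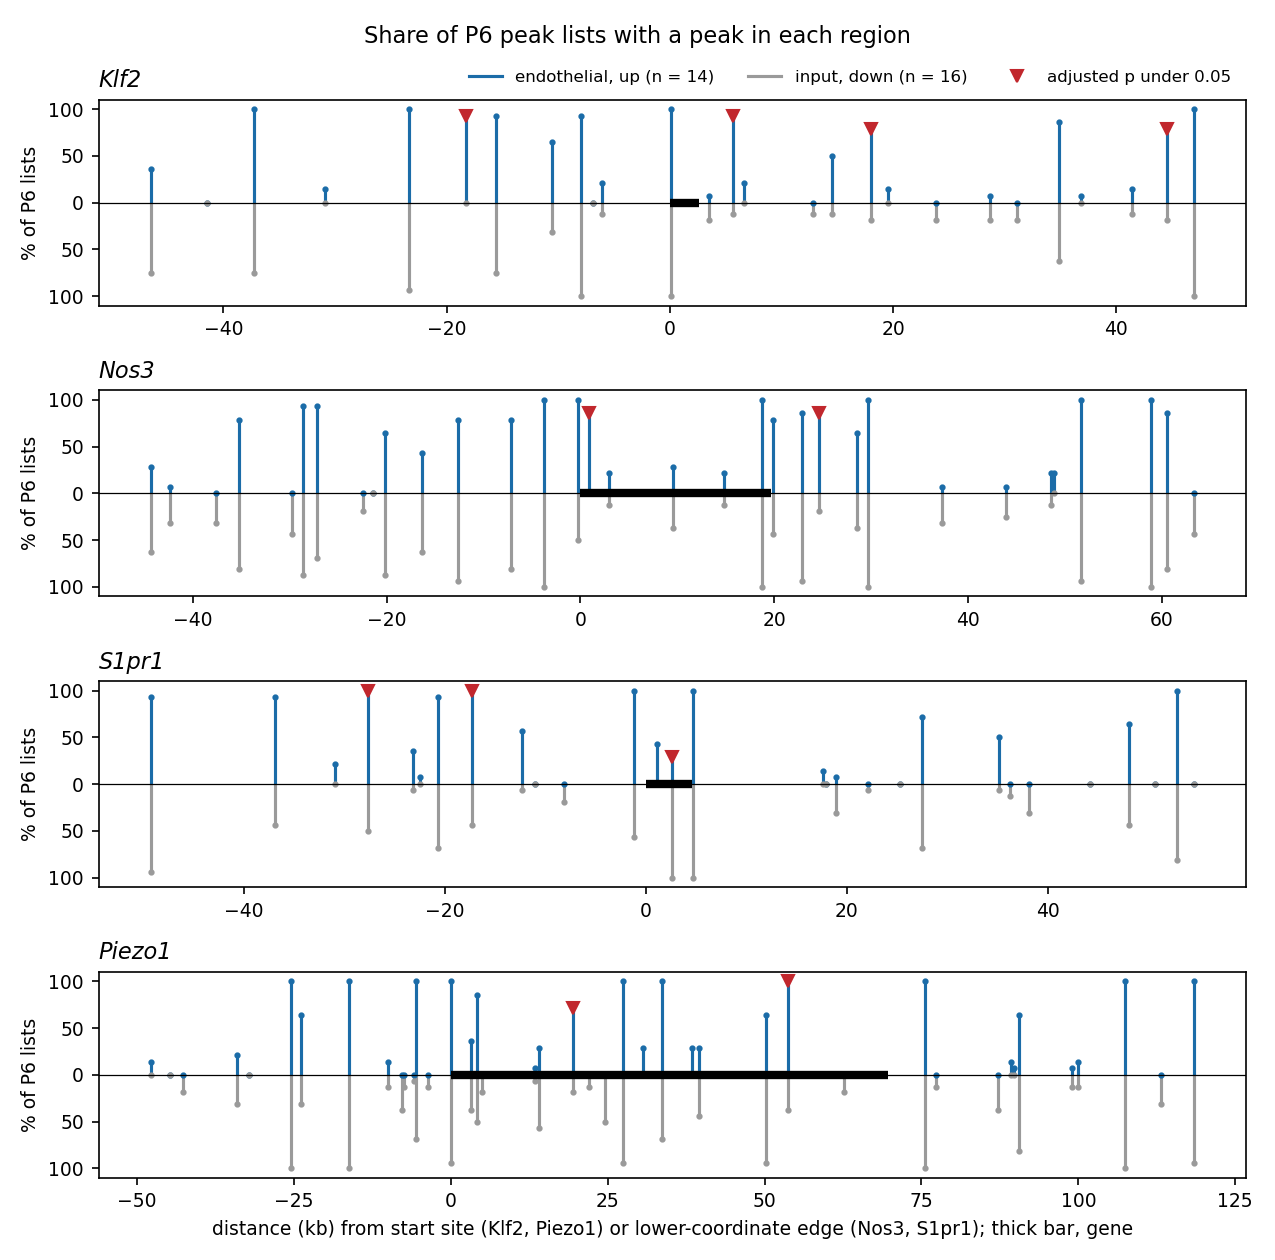
Share of P6 lists with a peak in each region, as a percent, by distance from the gene in kb, for Klf2, Nos3, S1pr1 and Piezo1; endothelial lists (n = 14) point up, input lists (n = 16) point down, and triangles mark regions that passed the exact test. The Klf2 region 17978 bp upstream has a peak in 13 endothelial lists and no input list, and the S1pr1 region within the gene shows the reverse pattern (4 and 16).

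These calls rest on weak as well as strong peaks. When each list was reduced to its 19464 strongest peaks, 11 member regions passed again, beside 3.70% of all regions, but only 1 of them, the Piezo1 region 53117 bp from the start, was among the 11 above. The strongest peaks then set the start of Edn1 (13 of 14 endothelial, 4 of 16 input lists, exact adjusted p = 0.00991), the lower edge of Nos3 (11 and 0, 0.00366), the upper edge of Thbd (11 and 3, 0.0109), a region 637 bp below S1pr1 at chr3:115708816-115709796 (14 and 3, 0.00232) and one 36937 bp upstream of Klf2 at chr8:72281451-72282125 (14 and 2, 0.00232) apart between the groups. All 11 were more frequent in endothelial lists. Leaving out P6 kidney endothelial 1, kidney input 2 or 3, retina endothelial 1 or retina input 1 lowered the count to 7, and without the short P6 brain endothelial list 1 it was 10. Over all alternatives, the calls of the Klf2 region 17978 bp upstream, both Nos3 regions and the S1pr1 region within the gene were kept in 35 of 37 and that of the Piezo1 region 53117 bp from the start in 36 of 37, while those of the S1pr1 regions outside the gene were kept in 4 and 14, of the second Piezo1 region in 17 and of the Eps15l1 region in 21. Of the 37, 30 each left out 1 library. With the replicate number as a block all of these calls were lost, and with lists of equal length all but that of the Piezo1 region 53117 bp from the start.

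In adults the same comparison called no member region of 136 tested and no region of 182612 in the genome (0%) by the exact stratified test. The smallest p over all regions was 0.000257. On simulated lists of this design the test also made no correct call, so the count of 0 says nothing of how many regions differ. Unadjusted p-values were under 0.05 at 21 member regions (15.4%) and at 5.16% of all regions. Klf2 windows held 8.67 ± 1.37 peaks in adult endothelial lists (SD, n = 12) and 6.50 ± 3.44 in input lists (n = 10), and Edn1 windows 1.42 ± 0.51 and 3.30 ± 3.06.

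Between adult and P6 endothelial lists, 3 of 116 member regions passed, all less frequent in adults, which is 2.59% beside 3.44% of all 165261 regions (3.43% less and 0.00303% more frequent). Unadjusted p-values were under 0.05 at 27.6% of member regions and 16.8% of all. They were the Klf2 region 2630 bp past its end (1 of 12 adult, 13 of 14 P6 lists, exact adjusted p = 0.0223), a Klf2 region 10351 bp upstream at chr8:72308252-72308711 (0 and 9, 0.0370, a call kept in 11 of 32 alternatives) and a region downstream of Klf4 at chr4:55477933-55478774 (2 and 13, 0.0265). The direction follows that of the whole genome, where 5675 of 5680 called regions were less frequent in the shorter adult lists. With lists of equal length no member region and no region of the genome passed (0%). Without P6 brain endothelial list 1 the count was 6, and without either adult retina endothelial list it was 1.

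Brain and retina vessels, which form a tight barrier, were set against heart, kidney, liver and lung over both ages. Of 117 member regions 7 passed, 5 more and 2 less frequent in brain and retina, or 5.98% beside 10.1% of all 173332 regions (8.16% more, 1.91% less frequent), and 22.2% and 20.9% had an unadjusted p under 0.05. With only peaks of −log10 q of at least 3, 8 member regions passed, 1 more and 7 less frequent, beside 4.09% of all regions. The file headers show several kinds of read processing, which go partly with the organ. Of 1 kind there are 7 brain and retina lists and 4 others, all from lung. Among these, and within each age, no member region of 103 passed and no region of the genome (0%). The smallest p these lists can give is 0.00794 (exact test), so a region could pass only together with many others. The counts of 0 therefore say nothing of how many regions differ. A Klf2 region 11741 bp past its end (chr8:72333395-72333843) had a peak in all 3 P6 and both adult brain lists and all 3 P6 retina lists, and in 1 of 16 lists of the other organs (adjusted p = 0.0136 by the exact test). The region within Eps15l1 showed the reverse in brain, with 0 of 5 brain lists, 3 of 5 retina lists and 16 of 16 of the others (0.0101). At E12, however, 3 of 3 brain endothelial lists had it.

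S1pr1 had 2 such regions beyond its upper edge. At chr3:115737539-115738402 all 10 brain and retina lists had a peak, as did 5 of 16 others, those of P6 heart, P6 lung and 1 adult heart list (exact adjusted p = 0.0267), and no kidney or liver list. The region at chr3:115758073-115758999 had the same counts, 10 and 5 (0.0304), but not in the same lists. Of 4 lung lists, 2 had the first region and 1 the second. A region inside Nos3, chr5:24367606-24367999, had a peak in all 5 retina lists and in none of the 21 others (0.0497). It was also in 2 of 3 P6 and both adult retina input lists. One within Kcnh2, chr5:24348105-24348903, had a peak in 8 of 10 brain and retina lists against 2 of 16 (0.0497). The Piezo1 region 18948 bp from the start was less frequent (2 of 10 against 12 of 16, 0.0483), a call kept in 8 of 33 alternatives. The Nos3 calls were kept in 6 of 33 and 6 of 32 alternatives. The count of 7 fell to 2 without either adult retina list, to 3 without P6 retina 2 or 3, and to 4 without any 1 of P6 retina 1, P6 heart 1 or 2, P6 kidney 2, P6 liver 1 or 2, P6 lung 2, adult heart 2, adult liver 1 or 2 or adult lung 2.

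**Figure D5:**
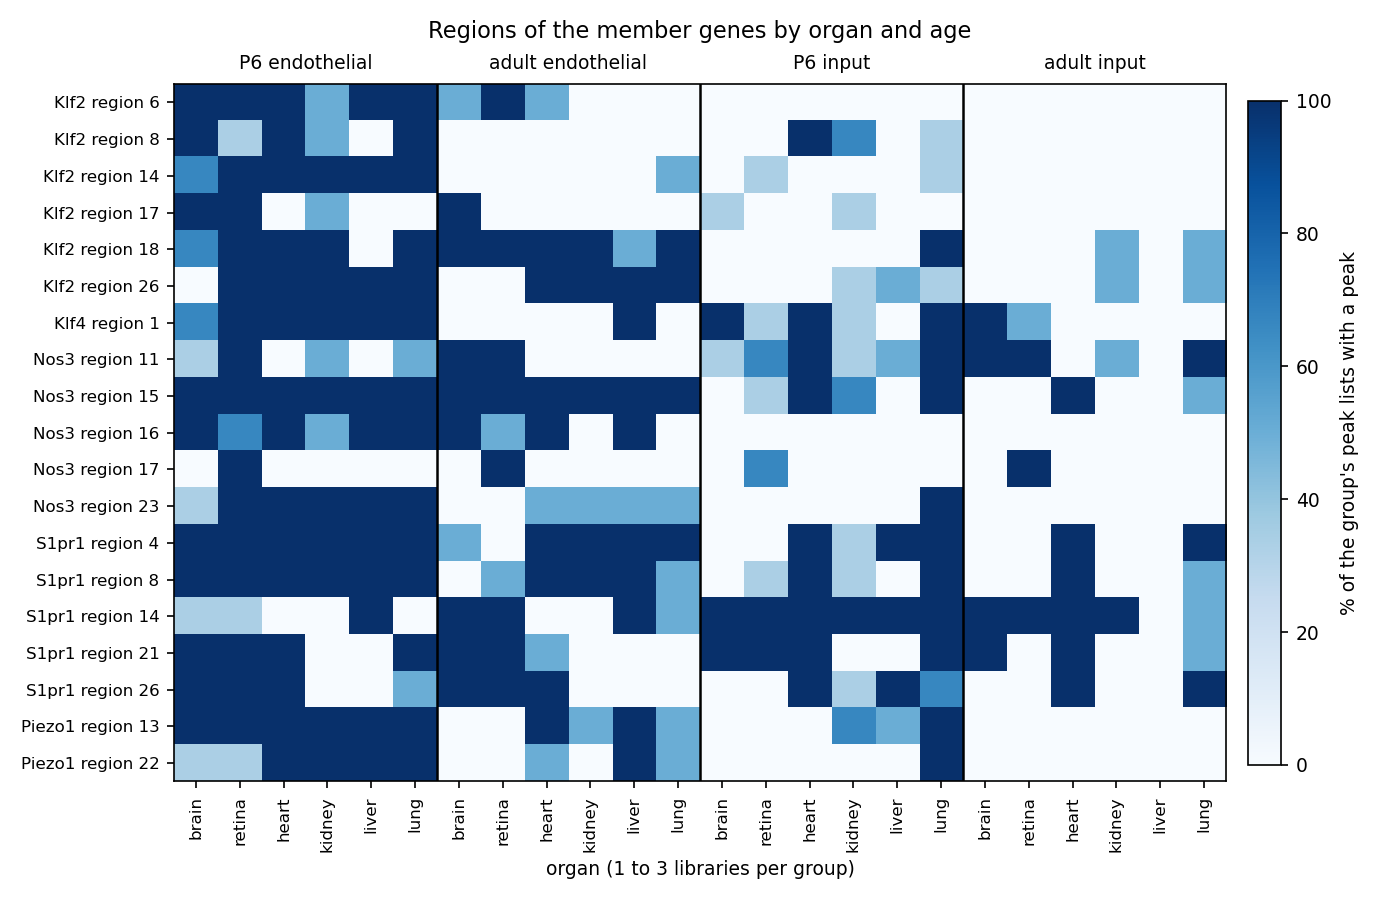
Share of the lists of each organ, age and kind that hold a peak, as a percent in colour, for the 18 member regions called in any comparison and the lower edge of Nos3 (region 15), numbered by position within each gene's window. Nos3 region 17 is filled in retina columns alone, endothelial and input, and Klf2 region 26, within Eps15l1, is empty in P6 and adult brain and full in endothelial lists of heart, kidney, liver and lung.

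At E12, where only 1 input list per organ exists and no test was made, the regions called at P6 were mostly present. Of 11 endothelial lists, 11 had a peak at both Nos3 regions and at both Piezo1 regions called at P6, and 7 to 9 at the 4 Klf2 regions. The 3 S1pr1 regions had a peak in 8, 10 and 7 endothelial lists, the last being the region within the gene that was less frequent at P6. Of the 3 E12 input lists, none had a peak at the Piezo1 regions or at 3 of the Klf2 regions, 1 had one at the Klf2 region 14544 bp past the end and at each Nos3 region, and 0, 2 and 3 had one at the S1pr1 regions. Edn1 windows held few endothelial peaks at every age: 4.18 ± 1.89 at E12 (SD, n = 11), 2.29 ± 0.99 at P6 (n = 14) and 1.42 ± 0.51 in adults (n = 12), against 5.62 ± 3.61 in P6 input lists (n = 16). Per 100000 peaks of the list, P6 endothelial lists had 3.33 ± 1.04 and input lists 6.52 ± 3.59 at Edn1, and 20.6 ± 4.88 and 11.0 ± 3.41 at Klf2.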

How the data were processed

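Single-cell counts (UMIs per gene and barcode) were deposited by the authors as 10x matrices, made with Cell Ranger per the submitters' processing notes; the version 4.0.0 stands in 3 of the headers. The name of the matrix labelled E16.5 gives an age 1 day later; the label was followed. This matrix came without a gene table, and its rows were read in the order of the other tables: log2 levels then correlated with the other libraries at 0.924 to 0.977, against 0.199 to 0.209 after a shift of 1 row. UMIs were summed over endothelial barcodes and given as CPM (per 1000000 UMIs). Doublets were not removed.

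Per the file headers, peaks were called by the authors with MACS2 2.1.2 in each library alone, without a control, with tags shifted by −100 bp and extended to 200 bp, broad regions joined at 0.1 and a q-value of 0.05. The deposited lists give a signal (the pileup), a fold over local background and −log10 p-values and q-values. The build is mm10 per the submitters' processing notes, and gene positions came from RefSeq on GRCm38.p6. Regions are stretches covered in at least 3 of 66 lists. Presence was tested with an exact conditional test, 2-sided and stratified by organ (by age for brain and retina against the rest), with Benjamini-Hochberg adjustment over all testable regions and a threshold of 0.05. The test was checked on simulated lists, where changed regions had a peak in nearly every list of a group and hardly any of its counterpart. It recovered most of these regions in the P6 and brain and retina designs, fewer between adult and P6, and none in adult endothelial against input. Smaller differences were not simulated, so their recovery is not known.

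The members and gene lists were chosen with earlier results of these data known. All 7 members are named. From each pathway list the text draws on the 2 highest and 2 lowest ratios at a step, and regions are named where called or at a start; a few genes that these rules select are not reported here. Barcodes are not replicates, and nothing says that replicate lists came from separate animals, so p-values measure the spread between these libraries. Start-site sequences were matched for 4 of 7 members; Nos3, Thbd and S1pr1 were not matched. The 54 bulk RNA tables were not used here. Scripts ran in Python 3.11.15 with numpy 2.4.6 and scipy 1.17.1.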

Additional observations from a re-analysis of the deposited data

Results flagged for a closer look

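In the third E12 heart endothelial list the numbers of peaks in the windows of Klf2 (5), Klf4 (5) and Piezo1 (14) each lay far below those of the other 3 lists of that group. The gap to the nearest list exceeded Dixon's 95% critical value for groups of 4. This list holds 39096 peaks in all, the lowest number among the 11 E12 endothelial lists. Of 14 sets of 4 lists tested, 3 were marked, and chance marks about 1 in 20. The E12 lists entered no test.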

How the results depend on the processing

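The 4 counts of called member regions (0 for adult and 11 for P6 endothelial against input, 3 for adult against P6, 7 for brain and retina against the others) were recomputed. Regions covered in at least 2 lists gave 4 for brain and retina (4.43% of all regions were called), and those in at least 6 lists gave 18 for P6 against input (6.08%) and 5 for adult against P6 (5.00%). Peaks covering at least 50 percent of a region gave 0 for adult against P6 (0%) and 4 for brain and retina (1.45%). Equal list lengths gave 0 for adult against P6 (0%), where the Klf2 region 2630 bp past the end and the region downstream of Klf4 reversed (adjusted p 1.0 each), and 10 for brain and retina (11.4%), of which 1 was among the 7. With −log10 q of at least 3, brain and retina gave 8 (4.09%), of which 7 were less frequent there and 3 were among the 7. Splitting strata by read processing gave 8 for adult against P6 (5.71%) and, as a setting chosen after seeing the data, 0 for brain and retina (0%). There 11 of the 26 lists could be used, and the smallest p they can give is 0.00794 (exact test). With the replicate number as a block, P6 gave 0 (0%), adult against P6 0 (0%) and brain and retina 1 (1.19%). Same-numbered endothelial and input lists showed a correlation of −0.165 to 0.182, over 0.1 in 4 of 20 pairs. In P6 brain it was 0.159, 0.182 and 0.0149. In groups of 2 lists the same-number and cross-number values are equal and opposite. Whether same-numbered lists share a preparation can therefore not be told, and the counts with this block stand beside the main ones. Leaving out 1 library at a time gave 0 to 0, 7 to 10, 1 to 6 and 2 to 7. With 1 library left out, 426 region values kept their call and 164 lost it. For other losses the cause was not tested.

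Shares in parentheses are of all genes called either way in the same setting. Of 28 single-cell steps, 11 reached 2-fold (21.1%; 3, 3, 0 and 5 per step), and 18 at 1.5-fold (42.2%), with 6 from E9.5 to E12.5 (51.9%) and 2 from E16.5 to P8 (42.4%). That last step gave 1 with a 5% mitochondrial limit (21.5%), 1 without barcodes holding 2 UMIs of other cells' markers (37.5%) and 1 among barcodes low in immediate early genes (24.2%), where E12.5 to E16.5 gave 0 (12.01%). Leaving out barcodes with those 2 UMIs keeps only 10, 3, 568, 38 and 133 barcodes in order of age (0.0473 to 15.0%), so its values describe few cells. From P8 to adult the count was 4 in place of 5 with a 5% mitochondrial limit (20.7%) and with thinning (22.6%). It was also 4 with mitochondrial, ribosomal protein and haemoglobin genes left out of the total (23.9%) and with median-of-ratios factors (23.8%). Against arterial identity (5 of 35, 3.06%), requiring 4 of 6 endothelial genes gave 3 (2.997%), leaving out barcodes with 2 UMIs of other cells' markers 8 (49.1%), thinning 9 (8.45%), a 1.5-fold limit 10 (7.295%), leaving out barcodes with 3 markers of other cells 3 (1.91%), low immediate early share 2 (2.38%), and the narrow class 12 (10.4%); these last 3 settings were chosen after seeing the data. Where both groups held UMIs, no value of 2-fold or more changed side. Smaller ones did, such as Edn1 at P8 over E16.5 (log2 −0.48, and 0.18 with a 5% mitochondrial limit). S1pr1 at E16.5 over E12.5 was 1.05-fold, and 0.753-fold in barcodes low in immediate early genes, and Thbd at E16.5 in arterial barcodes was 1.02-fold, and 0.790-fold in the narrow class. Depth limits Klf4 at E9.5 most, with 212 UMIs.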
